A study of Arabidopsis thaliana with 26 samples.

Results

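The first day of darkening was followed in leaves of Arabidopsis thaliana that lack PIF5, on 3 arrays of leaves kept in light and 3 arrays of leaves darkened for 1 day. These 6 arrays of the 26 in the study were chosen by their titles, and all 26676 rows of the deposited table entered every comparison. The knockout line, pif5-621, and its wild type Col-0 were grown at 22 °C in short days, with 8 h of light and 16 h of darkness. In the darkened groups a pair of mature leaves per plant was enclosed in foil-coated covers while the remaining rosette kept its daily cycle, and blades were collected at noon. The pif5 leaves in light were control leaves of the same line that were not covered. The Col-0 leaves in light (3 arrays) and after 1 day of darkening (3 arrays) were treated in the same way and differed by genotype, so the absence of PIF5 is shared by both pif5 groups and by neither Col-0 group. Later pif5 groups at 3, 6 and 12 days (3, 3 and 2 arrays) and Col-0 groups at 3 and 6 days (3 arrays each) are used where a level is followed past the first day. The mutant is represented by 1 line, and no label ties replicate arrays to different plants. The spread between arrays behind each p-value may therefore be technical.

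PIF5 is a basic helix-loop-helix transcription factor of the phytochrome-interacting family. Active phytochrome binds such factors in light and leads to their breakdown, so they accumulate in darkness. In detached or covered leaves PIF4 and PIF5 are known as promoters of dark-induced senescence, acting with ethylene and abscisic acid signalling on the breakdown of chlorophyll. A single covered leaf on a lit rosette is known to lose chlorophyll fast, and in darkened leaves generally transcripts of photosynthesis decline while transcripts of sugar-starvation, amino acid breakdown and autophagy genes accumulate.

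Rows are cited by the identifier the table gives them and not by gene. A gene name was to be used only if rows listed for light harvesting, the Calvin cycle and cytosolic ribosomal proteins had a median level above percentile 80 of all rows in light. The 7 rows listed for light harvesting and the photosystems, whose transcripts are among the most abundant of a lit leaf, had a median at percentile 50.2. The 3 Calvin cycle rows had a median at percentile 92.3, and the single row with a symbol of a ribosomal protein was at percentile 8.42. Of 144 genes in the lists for leaf functions and cell types, 31 had a row listed with that gene alone. The bound was not met, so an identifier here is a label of a row only. Whether the deposited values stand in the row of the identifier they were measured for was not established. If values are shifted against identifiers along the table, each identifier cited here belongs to another probe set than its values do. PIF5 had no such row, and neither the genotype labels nor the leaf tissue were checked by a marker.

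The arrays of each pif5 group lay close together and the groups lay far apart. Pearson's r over all rows was 0.988 between arrays in light and from 0.984 to 0.985 between arrays of day 1. Between the groups it was from 0.892 to 0.914. The root mean square difference over all rows was from 0.255 to 0.285 on the log2 scale within the groups and from 0.672 to 0.754 between them. The median SD of a row was 0.139 in light and 0.151 at day 1 (n = 3 each), and array medians lay between 4.30 and 4.33. Between pif5 and Col-0 in light, r was from 0.984 to 0.989 and the root mean square difference from 0.2501 to 0.291, which overlaps with the replicates. At day 1 the genotypes stood further apart than replicates of either, with r from 0.975 to 0.980 and a root mean square difference from 0.318 to 0.355.

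After 1 day without light, pif5 leaves had changed at 9348 rows, 35.0% of those tested (limma, adjusted p under 0.05). Of these, 4446 rows (16.7%) were higher and 4902 rows (18.4%) were lower than in pif5 leaves in light. Quantile normalization turned this order, with 4885 higher and 4464 lower. Falls went further than rises. At least 2-fold changes were found at 2787 rows (10.4%), made up of 1047 higher (3.92%) and 1740 lower (6.52%). Past 4-fold there were 204 rises and 430 falls, past 8-fold 60 and 117, and past 16-fold 23 and 29. At changes above 32-fold the order was the other way, with 6 rises and 4 falls. Rows called higher had a median log2 change of 0.64 (10th to 90th percentile 0.38 to 1.48), and rows called lower had a median of -0.79 (-1.91 to -0.41). Over all rows the median change was 0.03 and the median standard error of a change was 0.14. The excess of larger falls did not rest on one array. In each of the 9 pairings of 1 dark with 1 light array, more rows were at least 2-fold lower (1695 to 2040) than at least 2-fold higher (967 to 1336). The pairings reuse the same arrays on the deposited scale, so they cannot show whether this excess depends on the scaling. Under quantile normalization 2736 rows changed at least 2-fold, and their split into rises and falls was not taken.

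Many of the called changes were small. The smallest called change was 0.25 on the log2 scale, and 2440 of the calls (26.1%) were below 0.5. Arrays of the groups did not overlap at 11531 rows (43.2%), and 8916 rows (33.4%) passed the test and also did not overlap. The 17328 rows that did not pass (65.0%) were mostly bounded: at 17231 of them the 95% interval of the change lay within 2-fold, and at 97 it reached beyond. The median distance from estimate to bound was 0.28.

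The share of rises and falls differed with the level of a row in lit leaves. To keep the level apart from the pif5 arrays, rows were put in 10 equal classes (deciles) by their mean in Col-0 leaves in light, which share no array with the pif5 comparison. In the lowest decile 4.35% of rows passed, and in the fifth decile 30.9% did. In the highest decile, with levels from 7.22 to 13.09, 72.5% passed, with 18.0% of rows higher and 54.6% lower. Rises were most common in the middle of the range, at 27.1% of rows in the seventh decile, where 24.7% fell. From the eighth decile on, falls outnumbered rises. These shares are on the deposited scale, and how far they depend on the scaling of the arrays was not tested.

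**Figure D1:**
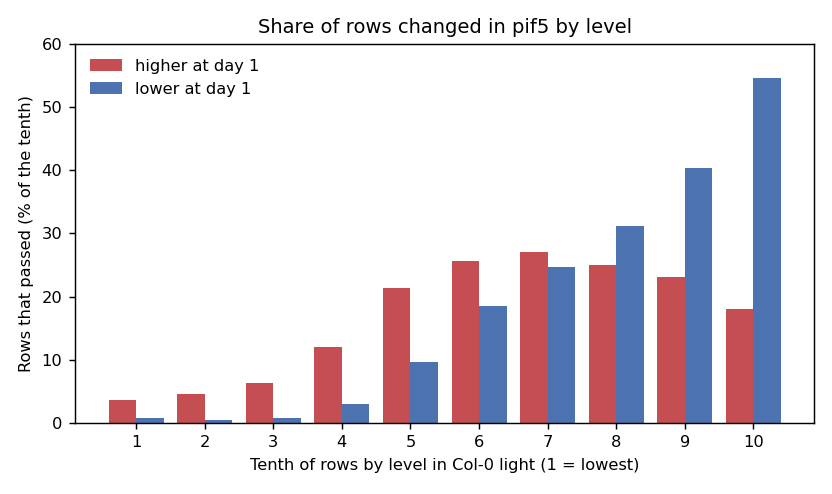
Share of rows, in percent of each decile, that were higher (red) or lower (blue) in pif5 leaves after 1 day of darkening than in light, by decile of level in Col-0 leaves in light. Falls make up 0.787% of the lowest decile and 54.6% of the highest, while rises peak at 27.1% in the seventh decile.

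Large changes followed the same order. In the highest decile 822 rows fell by at least 2-fold and 126 rose by as much, and the median change of that decile was -0.49. In the ninth decile 439 fell and 175 rose at that size. In the 4 lowest deciles no row fell by 2-fold, while 14, 15, 23 and 64 rows rose. These deciles lie between 2.79 and 3.81, and the lowest value of any pif5 or Col-0 array in light or at day 1 was between 2.24 and 2.71, so a fall of that size had almost no room there and the direction cannot be read at these levels. The median standard error was from 0.130 to 0.148 in every decile. How far the floor of the scale sets the share of falls in the middle deciles was not tested.

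**Figure D2:**
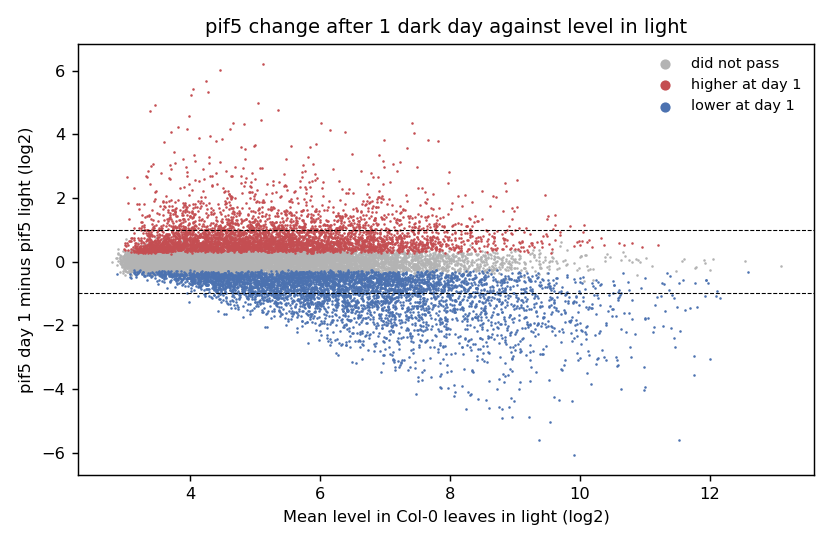
Change of each of the 26676 rows in pif5 leaves (day 1 minus light, log2) against its mean level in Col-0 leaves in light (log2), with rows that passed the test in red (higher) and blue (lower), rows that did not in grey, and dashed lines at 2-fold. The highest point is at 6.22 and the lowest at -6.08, and falls past 2-fold are seen only at levels above the 4 lowest deciles.

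Among the 5% of rows with the highest level in Col-0 light (1334 rows, level 8.04 or above), 1013 rows (75.9%) passed in pif5. Falls made up most of them, with 824 lower and 189 higher. At least 2-fold, 530 fell and 43 rose. The median change over these rows was -0.68, against 0.03 over all rows. Here too the values are on the deposited scale alone.

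The largest rise was at row 13478283. Its level was 5.83, 5.16 and 5.51 in the light arrays and 11.84, 11.52 and 11.80 in the day 1 arrays. All dark arrays stood far above all light arrays, and the change was 6.22 on the log2 scale (SE 0.28, adjusted p = 3.5e-16, limma), from 5.50 ± 0.33 to 11.72 ± 0.17 (SD, n = 3). The same row rose by 6.61 in Col-0, and the difference between the genotypes, -0.40 with a 95% interval from -1.21 to 0.42, did not pass (adjusted p = 0.83).

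Row 13516146 rose next furthest, from 4.35, 3.81 and 4.38 in light to 10.39, 10.37 and 9.85 at day 1, a change of 6.02 (SE 0.45, adjusted p = 1.1e-11). Row 13457167 stood at 4.86, 4.15 and 5.40 in light and at 10.66, 10.36 and 10.36 at day 1, a change of 5.66 (adjusted p = 2.9e-15). In both rows the light arrays lay in the middle of the range of levels and the dark arrays near its top, with no overlap. Row 13338235 went from 4.02, 3.86 and 4.37 to 9.73, 9.51 and 9.31 (5.43, adjusted p = 7.2e-16). Row 13493069 went from 4.02, 4.10 and 4.06 to 9.44, 9.16 and 9.59 (5.34, adjusted p = 2.1e-14). The light arrays of row 13493069 were the tightest of these, with an SD of 0.04.

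The other 5 of the 10 largest rises were at rows 13533686, 13474362, 13361487, 13449900 and 13410651, with changes of 5.22, 4.97, 4.92, 4.77 and 4.72. Over the 10 rows the mean level in light ran from 3.56 to 5.50 and at day 1 from 8.48 to 11.72. The rank of a row's mean moved from percentiles between 27.3 and 69.3 of all rows to percentiles of 97.1 and above.

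**Figure D3:**
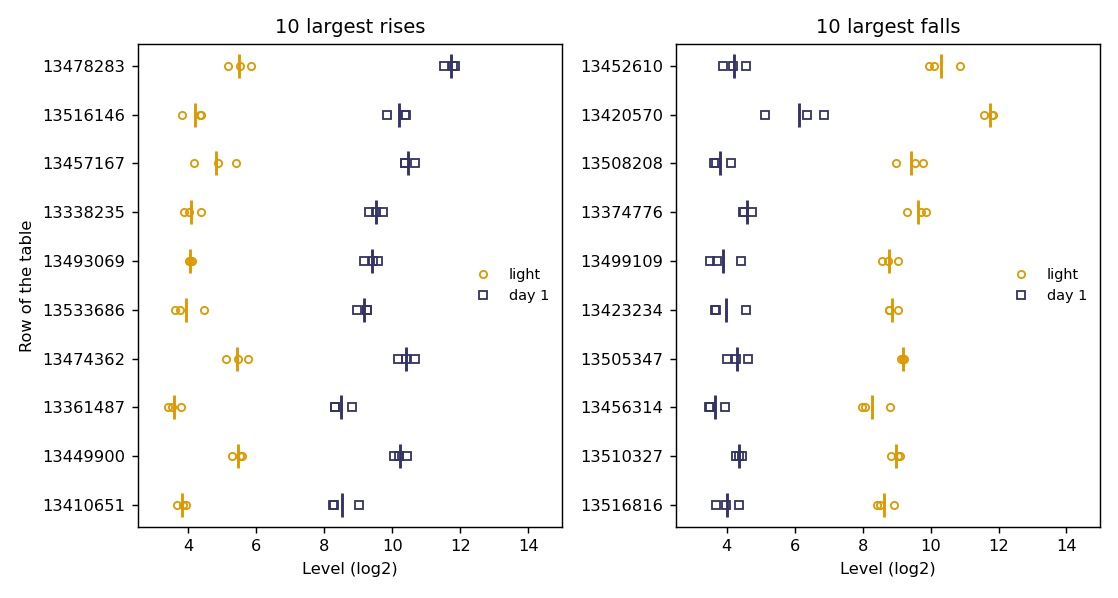
Level (log2) of the 10 rows with the largest rises (left) and the 10 with the largest falls (right) in each pif5 array in light (orange circles) and at day 1 (blue squares), with vertical ticks at the group means. In every row the 3 light arrays and the 3 day 1 arrays are separated by a gap wider than either group. Rows with overlapping groups could not be chosen, so the lack of overlap is set by the choice.

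The furthest fall was at row 13452610, from 9.94, 10.87 and 10.09 in light to 4.58, 3.89 and 4.17 at day 1. The change was -6.08 (SE 0.33, adjusted p = 1.7e-14, limma), from 10.30 ± 0.50 to 4.22 ± 0.34 (SD, n = 3). A row in the top percentile of lit leaves thus stood below the median of all rows in each dark array except replicate 1, which read 4.58. In Col-0 the same row had a change of -5.66.

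Row 13420570 stood at 11.81, 11.57 and 11.84 in light and at 6.36, 5.13 and 6.88 at day 1, a change of -5.62 (adjusted p = 2.8e-11). Its dark arrays were more spread than those of its neighbours in rank, with replicate 2 lowest, yet all were far below the light arrays. Row 13508208 went from 9.77, 9.54 and 8.99 to 4.14, 3.63 and 3.69 (-5.61, adjusted p = 5.1e-18). Row 13374776 went from 9.32, 9.71 and 9.86 to 4.75, 4.52 and 4.50 (-5.04, adjusted p = 3.8e-19). In both rows every dark array was far below every light array, although their light SDs of 0.40 and 0.28 were wider than the median of 0.139.

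The other 6 of the 10 largest falls were at rows 13499109, 13423234, 13505347, 13456314, 13510327 and 13516816, with changes of -4.91, -4.90, -4.88, -4.64, -4.64 and -4.61. Over all 10 the mean level in light was between 8.29 and 11.74, and at day 1 between 3.65 and 6.12. Every one of the 20 rows with the largest rises or falls also passed in Col-0 with the same sign. None of the 20 passed the test of a difference between genotypes, with a lowest adjusted p of 0.48 among the rises and 0.45 among the falls.

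Rises from an already high level were smaller. The highest value of each pif5 array in light or at day 1 was between 12.95 and 13.37, so rows that start high had less room to rise. How far this limit sets the size of their rises was not tested. Row 13390334 stood at 9.50, 9.14 and 8.78 in light and at 11.78, 11.66 and 11.70 at day 1, a change of 2.57 (SE 0.19, adjusted p = 4.8e-12), and rose by 2.75 in Col-0. Its dark arrays all lay above its light arrays and closer together. Rows 13475619, 13437814 and 13538325 rose by 2.47, 2.22 and 2.22. These are the 4 largest rises among the 1334 most abundant rows, while the 4 largest falls among them are the first 4 falls given above.

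A small set of rows changed from the lower part of every array to its top decile or the reverse. By the bounds of percentile 50 and percentile 90, 6 rows were below the first in all light arrays and at or above the second in all dark arrays of pif5. Among them, row 13365305 went from 4.31, 3.87 and 4.19 to 8.89, 8.68 and 8.48. In the other direction 13 rows left the top decile for the lower part. Row 13380592, for example, went from 7.99, 7.87 and 7.98 to 3.66, 3.65 and 3.83. Of these rows, 5 of the 6 and 9 of the 13 met the same bounds in Col-0, where 14 and 20 rows did in all. The top decile was replaced only in part: 2373 rows were at or above percentile 90 in all light arrays, 2313 in all dark arrays and 1593 in both.

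The comparison with Col-0 asks which of these changes differ when PIF5 is present. Col-0 leaves had changed at 10196 rows (38.2%) after 1 day, with 5180 higher (19.4%) and 5016 lower (18.8%). The genotypes share no array in this comparison. There were 7545 rows called in the same direction in both, which is 80.7% of the pif5 calls and 74.0% of the Col-0 calls, and 19 called in opposite directions. Of the 1047 rows at least 2-fold higher in pif5, 1042 had the same sign in Col-0 and 1016 were also called higher. Of the 1740 at least 2-fold lower, 1736 had the same sign and 1708 were also called lower. Chosen on pif5 values, the rises had medians of 1.40 in pif5 and 1.42 in Col-0, and the falls had medians of -1.49 and -1.55.

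Choosing rows in Col-0 alone gives the view from the other side. Among 1223 rows at least 2-fold higher in Col-0 (4.58%), 1149 (93.9%) were called higher in pif5 and 1209 had a change of that sign, with a median pif5 change of 1.23. Among 1898 rows at least 2-fold lower in Col-0 (7.12%), 1863 (98.2%) were called lower in pif5 and 1895 had that sign, with a median of -1.40. In the individual pif5 arrays the median level of the rows chosen for rising went from 5.30, 5.19 and 5.21 in light to 6.77, 6.67 and 6.59 at day 1. The median level of the rows chosen for falling went from 6.996, 7.07 and 7.03 to 5.36, 5.38 and 5.47. Neither set of medians overlapped between light and day 1, and a set chosen on Col-0 values is drawn toward larger changes there.

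With rows chosen on the average change of both genotypes, which favours neither, the pif5 changes were slightly smaller in the median. The 1091 rises so chosen, at least 2-fold on the average, had medians of 1.35 in pif5 and 1.47 in Col-0. The change was smaller in pif5 at 656 of these rows (60.1%). The 1783 falls, by the same bound, had medians of -1.46 and -1.55, and the change was smaller in pif5 at 1064 rows (59.7%). Taken row by row, few of these differences passed the test: 55 rises were smaller and 13 larger in pif5, and 21 falls were smaller and 9 larger.

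A difference in response was tested at every row as an interaction term in limma. It passed at 229 rows (0.858%), of which 88 (0.330%) were more positive and 141 (0.529%) more negative in pif5. An unadjusted p under 0.05 in limma was found at 2705 rows (10.1%). These 229 differences ranged from -3.00 to 2.34 on the log2 scale with a median size of 1.07, and 129 were at least 2-fold. Leaving out 1 array moved the total to between 129 and 300, and it moved by over 1.5 times without pif5 light replicate 1 (152) or 3 (140), pif5 day 1 replicate 2 (132) or Col-0 light replicate 2 (129). In leaves kept in light 9 rows differed between genotypes, and 1 of the 229 was among them. At 2260 of the 2787 rows changed at least 2-fold in pif5 (81.1%) the 95% interval of the difference lay within 2-fold, and at 527 it reached beyond, with a median distance from estimate to bound of 0.40. For most of these rows a 2-fold difference in response is thus outside the interval. Smaller differences are bounded only as far as the interval of each row reaches.

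The rows that differed fell into several classes. Of the 229, 102 were called in the same direction in both genotypes, 109 in 1 genotype only and 18 in opposite directions. Of the 141 rows more negative in pif5, 57 rose in both genotypes, 42 rose in Col-0 and were not called in pif5, 25 fell in pif5 and were not called in Col-0, 11 fell in pif5 and rose in Col-0, and 6 fell in both. Of the 88 rows more positive in pif5, 26 fell in both, 23 fell in Col-0 and were not called in pif5, 19 rose in pif5 and were not called in Col-0, 13 rose in both, and 7 rose in pif5 and fell in Col-0. The most frequent single class was thus a rise in both that was smaller in pif5.

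**Figure D4:**
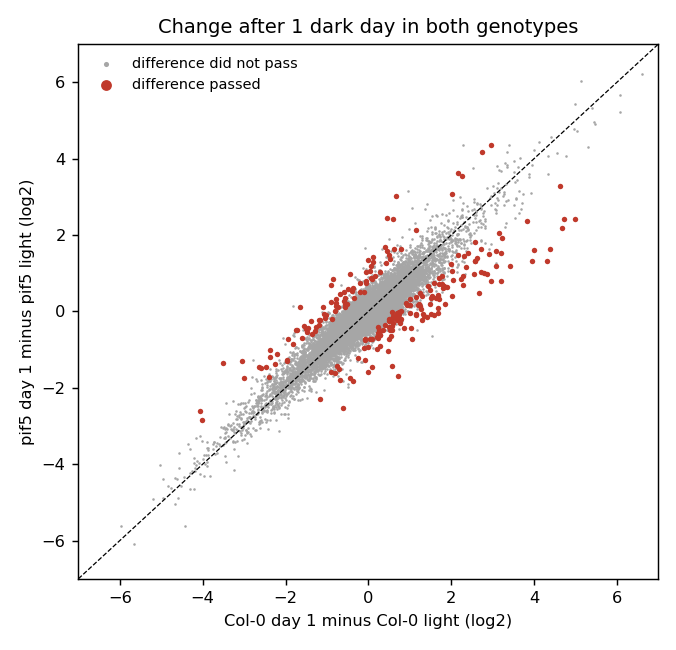
Change after 1 day of darkening in pif5 (vertical, log2) against the change in Col-0 (horizontal, log2) for all 26676 rows, with the 229 rows whose difference passed in red and a dashed line at equal change. Most rows follow the line, and 141 red points lie below it and 88 above.

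The 4 rows furthest below equal change all rose in both genotypes and rose less without PIF5. Row 13496789 stood at 4.19, 3.70 and 3.95 in pif5 light and at 5.09, 5.11 and 5.61 at day 1. In Col-0 it went from 3.94, 4.13 and 3.60 to 8.37, 8.40 and 7.88. The light arrays of the genotypes overlapped, while at day 1 every pif5 array was far below every Col-0 array. The rise was 1.32 in pif5 and 4.32 in Col-0, a difference of -3.00 (95% interval -3.53 to -2.46, adjusted p = 9.6e-08).

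Row 13398143 went from 3.86, 4.21 and 4.05 to 5.53, 5.87 and 5.63 in pif5, and from 4.10, 4.43 and 4.25 to 8.50, 8.96 and 8.46 in Col-0. The rises were 1.64 and 4.38, a difference of -2.74 (adjusted p = 3.5e-08). This row had the lowest adjusted p among the 8 rows described here, and its arrays were close together in each of the 4 groups. Row 13334833 went from 4.73, 4.37 and 5.03 to 6.27, 5.82 and 6.02 in pif5 and rose by 1.33, against 3.96 in Col-0 (difference -2.63, adjusted p = 3.1e-07). Row 13498760 went from 5.31, 5.19 and 5.82 to 8.02, 7.57 and 7.96 in pif5 and rose by 2.41, against 4.98 in Col-0 (difference -2.57, adjusted p = 0.00067). In both rows the light arrays of the genotypes overlapped and the day 1 arrays did not, which follows in part from choosing rows by a large difference.

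On the later days these 4 rows took different courses in pif5. Row 13398143 was higher than at day 1, at 7.28 ± 0.21 at day 3 and 8.02 ± 0.08 for day 6 (SD, n = 3), while Col-0 stood at 9.27 ± 0.16 and 8.77 ± 0.25. Row 13334833 was at 7.09 ± 0.40 and 7.88 ± 0.21 in pif5 and at 8.31 and 8.58 in the 2 arrays of day 12. Row 13496789 was at 6.34 ± 0.23 and 6.73 ± 0.11, and at 6.93 and 7.40 at day 12. In these 3 rows the day 6 mean was above the day 1 mean and nearer to the level Col-0 had at day 1. Row 13498760 was instead lower than at day 1, with 6.58 ± 0.38 at day 6 and 6.25 and 5.87 at day 12. It also stood lower in Col-0, at 10.44 ± 0.45 on day 1, 8.12 ± 0.51 on day 3 and 8.06 ± 0.60 on day 6. The later levels are given as description and were not tested here.

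The 4 rows furthest above equal change were less alike. Row 13542220 stood at 3.24, 3.39 and 3.12 in pif5 light and at 5.50, 7.76 and 5.53 at day 1, against 3.06, 3.31 and 3.81 and then 3.96, 4.12 and 4.13 in Col-0. Replicate 2 of pif5 day 1 was well above the other two, and all 3 were above every other array of the 4 groups. The rise was 3.01 in pif5 and 0.67 in Col-0, where it did not pass (adjusted p = 0.14), and the difference was 2.34 (95% interval 1.32 to 3.36, adjusted p = 0.016). Without pif5 day 1 replicate 2 it was 1.59 and passed (adjusted p = 0.0076). It did not pass with the 4 groups alone in the fit (adjusted p = 0.067), with a trended and robust variance (0.078) or without Col-0 light replicate 3 (0.058).

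Row 13397554 went from 6.91, 7.04 and 6.25 to 8.78, 10.12 and 8.61 in pif5, a rise of 2.44, against 0.44 in Col-0 (difference 2.00, adjusted p = 0.042). Row 13343726 went from 4.96, 4.95 and 5.10 to 7.20, 7.82 and 7.21 in pif5, a rise of 2.41, against 0.59 in Col-0 (difference 1.81, adjusted p = 2.7e-05). In both, as in row 13542220, day 1 replicate 2 was the highest of the dark arrays, and what set this array apart was not tested. Without that array the difference at row 13397554 was 1.52 and no longer passed (adjusted p = 0.15), and that row also lost its call under other settings.

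Row 13519611 was a fall that was shallower without PIF5. It stood at 10.43, 10.30 and 10.02 in pif5 light and at 8.99, 8.57 and 9.12 at day 1, against 9.89, 10.08 and 9.98 and then 6.71, 6.95 and 5.78 in Col-0. It fell by 1.36 in pif5 and by 3.50 in Col-0, a difference of 2.15 (95% interval 1.34 to 2.95, adjusted p = 0.0037). On later days it stood lower still in pif5, with 7.68 ± 0.77 for day 3 and 6.96 ± 0.42 for day 6 (SD, n = 3), and in Col-0 with 4.71 ± 0.16 and 3.61 ± 0.19.

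**Figure D5:**
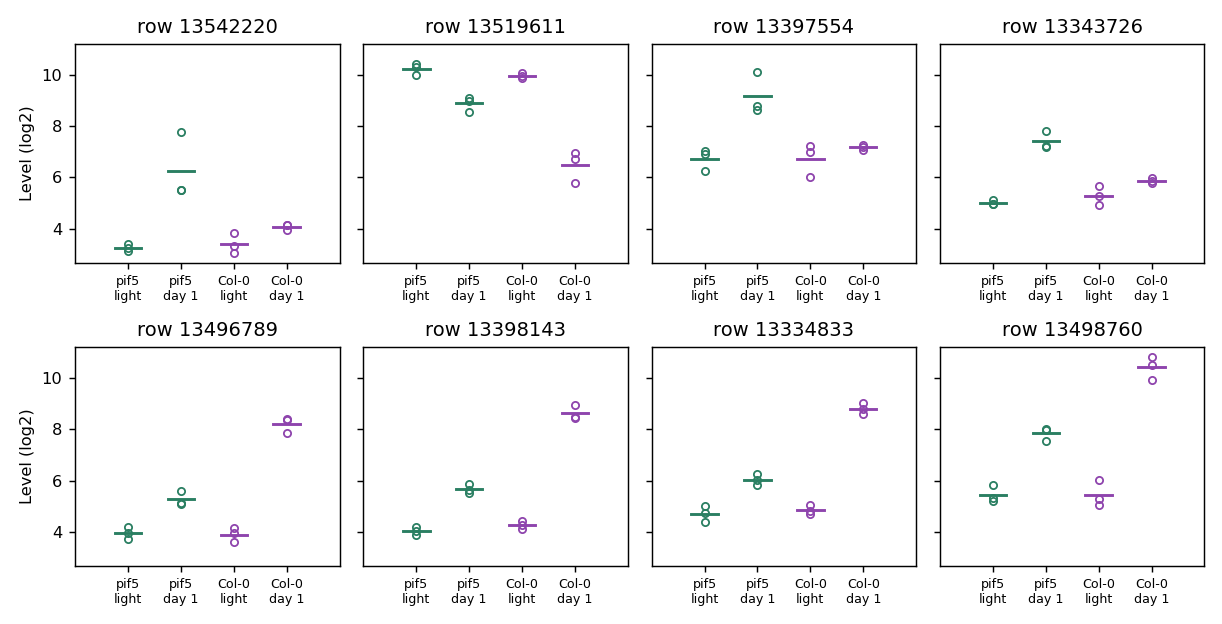
Level (log2) in each array of pif5 (green) and Col-0 (purple) in light and at day 1 for the 4 rows most positive (top) and the 4 most negative (bottom) in the difference in response, with bars at the group means. In the lower panels the pif5 day 1 arrays lie between the light arrays and the Col-0 day 1 arrays.

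Levels on later days are given as description, because these groups share the light arrays with day 1, and as medians over sets of rows, which do not say how single rows moved. For the rows chosen in Col-0 as rising, the median level in the pif5 arrays was 6.49, 6.60 and 6.65 on day 3. It was 6.24, 6.36 and 6.24 on day 6 and 6.25 and 6.04 on day 12, above every light array throughout, overlapping with day 1 at day 3 and below it from day 6. For the rows chosen as falling it was 5.51, 5.38 and 5.31 on day 3, then 5.58, 5.52 and 5.57 on day 6, and 5.51 and 5.65 on day 12, below every light array and within or slightly above the day 1 range in all but 1 array.

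The 10 rows with the largest rises in pif5 all stood lower at days 6 and 12 than at day 1. Their group means were nearer to the light level than at day 1 in 6 rows at day 3, and in all 10 rows at days 6 and 12, and no array overlapped with light. The median of the 10 means was 9.86 at day 1, 9.67 at day 3, 8.76 at day 6 and 7.96 at day 12. The 2 arrays of day 12 stood apart, with medians over the 10 rows of 8.88 and 7.05 and replicate 2 lower in all 10 rows. Replicate 1 alone was within the range of the day 6 arrays (8.40, 9.33 and 8.53), so the lower value at day 12 rests on replicate 2. In Col-0 the same rows had a median of 9.87 at day 1, 10.48 at day 3 and 10.14 at day 6. The rows were chosen as furthest up at day 1 in pif5 and not in Col-0. Part of a later drop in pif5 can follow from that choice, so the 2 courses are not on an equal footing. Whether these courses differ between genotypes was not tested here.

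The 10 largest falls stayed low as a group, with a median of means of 4.11 at day 1, 4.40 at days 3 and 6 and 4.09 at day 12 in pif5, against 9.09 in light. In pif5, row 13452610 was higher at day 6, at 7.44, 6.91 and 5.57, than at day 1, and stood at 4.21 and 4.13 on day 12. Row 13420570 moved further back toward light in pif5, where it was back at 10.17 ± 0.08 on day 6 (SD, n = 3), with 10.44 and 10.79 on day 12, while Col-0 stood at 6.93 ± 0.43 at day 6. Row 13423234 did so in Col-0, at 8.43 ± 0.55 at day 3 and 8.30 ± 0.14 at day 6, while pif5 stood at 5.71 ± 0.35 and 4.72 ± 0.50. These 3 rows were singled out after their values were seen.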

How the data were processed

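The authors deposited log2 values for 26676 rows on 26 arrays, summarised per row. The submitters' processing notes name oligo, while the sources used here give none of its background, scaling or summary options. Biotin-labelled cRNA was hybridised, per the labels' protocols. Each array's group and replicate number were read from its title. No further scaling was applied, and scan or hybridisation batches were not analysed here.

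All 9 groups entered 1 fit in limma 3.58.1 with R 4.3.3 (lmFit, contrasts.fit, eBayes, 17 residual degrees of freedom). The contrasts were day 1 against light in each genotype, their difference, their average, and pif5 against Col-0 in light. P-values were adjusted by Benjamini-Hochberg over the 26676 rows, with a threshold of 0.05, and 2-fold is 1 on the log2 scale. Rows are named by rule: the 10 largest rises and 10 largest falls in pif5 that passed without overlap, the 4 rows each way with the largest passing difference between genotypes, and the 4 largest rises and falls among the 5% most abundant rows. Rows named outside it were chosen after their values were seen. The lists, rows and descriptions were chosen with earlier results of these data known. The fit was also run on simulated data with independent noise and few changed rows. That setting differs from these data, so it does not bear on the calls given here. The number of arrays limits the precision.

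Names come from a platform annotation that lists 1 gene for 16179 rows, several for 588 and none for 9909. Markers of cell types were not used, because the names were not borne out. Same-numbered arrays of pif5 light and day 1 had deviations correlated at 0.18, 0.11 and 0.06, against -0.12 to 0.01 for other pairings. For Col-0 light and day 1 the values were 0.002, 0.04 and 0.09, against -0.06 to 0.03. Between the genotypes they were -0.01, 0.17 and -0.02 in light (others -0.15 to 0.15). At day 1 they were 0.18, 0.11 and 0.01 (others -0.14 to 0.03). What same-numbered arrays share was not tested. The fit of all groups did not take the numbers as pairs, and fits with the number as a block are given below.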

Additional observations from a re-analysis of the deposited data

Results flagged for a closer look

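The first day of darkening moved 229 rows by a different amount in pif5 than in Col-0, by the test of the difference itself. The 8 rows with the largest passing differences each way are singled out for the same reason. The pif5 change minus the Col-0 change was -3.00 at row 13496789, -2.74 at row 13398143, -2.63 at row 13334833 and -2.57 at row 13498760. It was 2.34 at row 13542220, 2.15 at row 13519611, 2.00 at row 13397554 and 1.81 at row 13343726.

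All 4 rows below equal change and rows 13519611 and 13343726 passed under each of the 18 alternatives run. Row 13397554 lost its call under 10 of the 18, with a highest adjusted p of 0.15 in limma, and row 13542220 under 3, with a highest adjusted p of 0.078. Groups of 2 or 3 arrays are too small for a check of single outlying arrays, which needs 4.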

How the results depend on the processing

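The counts of rows changed in pif5 stayed within 1.5 times under all alternatives run, with 8294 to 8750 calls when 1 array was left out and 8945 to 9457 under the other settings. Quantile normalization turned the split to 4885 higher and 4464 lower, against 4446 and 4902. Centring arrays on their medians gave 4689 and 4768, and neither scaling moved the median change of all rows by over 0.1. That median does not show shifts at high levels. Under quantile normalization the change went from -5.62 to -5.21 at row 13420570 and from 2.57 to 2.78 at row 13390334, both abundant in light. At row 13457167, lower in light, it went from 5.66 to 5.63. The shares of rises and falls by level are given on the deposited scale alone. The 24 rows named for their change in pif5 or their abundance kept direction and call in all 288 values computed, with a highest adjusted p of 1.9e-06 in limma. The replicate number was entered as a block only in fits on the groups of each comparison alone. There, 9407 rows passed in pif5, 9598 in Col-0 and 204 in the difference. Of these, 8869, 9284 and 161 had also passed in the fit of all groups. The 161 rows are 70.3% of the 229 differences of that fit. With the block, none of the 32 named rows lost its call.

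The count of differences between genotypes was the least stable. Leaving out 1 array gave totals from 129 to 300, with 43 to 119 rows more positive and 84 to 193 more negative in pif5. With the 4 groups alone in the fit 172 rows passed, 146 of them among the 229, and rows more positive numbered 55. Totals fell to 152 and 140 without pif5 light replicate 1 or 3, to 132 without pif5 day 1 replicate 2 and to 129 without Col-0 light replicate 2. Rows more positive fell to 53, 48, 43 and 45 without those arrays, to 56 without Col-0 light replicate 3 and to 58 without Col-0 day 1 replicate 1 or 2. Rows more negative fell to 92, 89 and 84 without pif5 light replicate 3, pif5 day 1 replicate 2 or Col-0 light replicate 2. Each such fit has 1 array fewer, and no other cause was tested. Of 144 values for the 8 rows that differed, 131 kept their call, 13 lost it and none turned sign.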

Other observations

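Changes of rows next to each other in the table were only weakly related in pif5 leaves. Over 26675 neighbouring pairs of rows, Pearson's r of the log2 change was 0.033, and for rows 2 apart it was 0.0025, given as a description since rows are not replicates. A row that fell at least 2-fold was followed by another such fall in 8.33% of cases, against 6.52% of all rows. A row that rose at least 2-fold was followed by another such rise in 5.73% of cases, against 3.92%. At 4-fold the shares were 2.56% against 1.61% for falls and 1.96% against 0.765% for rises, on 11 and 4 neighbouring pairs.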
